A study of Mus musculus with 8 samples.

Results

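The heart burns branched-chain amino acids and ketone bodies beside fatty acids and glucose, and 29 genes for these routes were followed here in mice with a leaking mitral valve. The members are the genes of the deposited count table whose Ensembl identifiers carry the 29 listed symbols, and all 29 were found among 33105 genes listed. They were listed by name, with earlier results of these data known, so counts over them are a description only. Heart tissue came from C57BL/6J mice in 2 groups of 4 libraries, one labelled Sham and one labelled MR, the series' abbreviation for mitral regurgitation, which was produced by a minimally invasive operation and loads the heart with extra volume. The series set out to find pathways and genes of the hypertrophy that follows. Neither group carries a labelled allele or drug, and RNA libraries of mRNA type were made from frozen, powdered tissue. Age, sex, time after surgery, the part of the heart taken and any pooling of animals were not given in the sources used here.

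Leucine, isoleucine and valine first lose their amino group to a branched-chain aminotransferase, and the keto acids left behind are oxidised by the branched-chain keto acid dehydrogenase (BCKDH) complex, which a kinase switches off and a phosphatase switches on. Leucine carbon ends as acetyl-CoA and acetoacetate, isoleucine gives acetyl-CoA and propionyl-CoA, and valine gives propionyl-CoA. Propionyl-CoA enters the citric acid cycle as succinyl-CoA through a biotin-dependent carboxylase and a cobalamin-dependent mutase. Ketone bodies made in the liver enter the heart through a monocarboxylate transporter and are turned back into acetyl-CoA in its mitochondria. Loss of branched-chain amino acid breakdown and a greater use of ketone bodies are both known features of failing hearts.

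None of the 29 genes passed the threshold between MR and Sham, a false discovery rate of 0.05 in the edgeR quasi-likelihood test over 16603 genes, of which 0.458% passed. DESeq2 and limma-voom with quality weights also called 0 of the 29, where they called 4.59% of 14990 genes and 2.75% of 16603. DESeq2 gave no adjusted p for Bdh2. Log2 fold changes of 23 genes were negative and of 6 positive, where 49.6% of all genes tested were negative. The median of the 29 was −0.14 against 0.0019 over all genes, and without Sham replicate 1 it was −0.085. An unadjusted p under 0.05 was found for 9 of the 29 with a negative value and for 0 with a positive one, where 7.29% and 7.78% of all genes were lower and higher at that p. The 6 positive values belonged to Oxct1, Bdh1 and Bdh2 of ketone use, Hibch of valine breakdown, and Mcee and Mmaa of propionate use. For 26 of the 29 the 95% interval of the fold change lay within 1.5-fold in either direction, and the exceptions were Bcat1, Bdh1 and Bdh2.

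Stretches upstream of the start site are shown for Mccc1 and Aldh6a1, which are among the 8 members with the lowest p, and for Hsd17b10, the highest per length of all exons in its role (Hibadh by principal transcript). All 3 hold the letters CCACCC, a short motif of the kind bound by Kruppel-like factors such as Klf15, whose own transcript is described further on. They are among 11 members with a match in a window. Pccb and Bckdk, also among the 8, had no match in theirs. Neither had Oxct1, Dld, Ppm1k and Mcee, each the highest per length of all exons in its role. Any action of Klf15 on these genes was not tested. Sequences are from RefSeq on GRCm38.p6, written on the strand of the gene, with the motif in capitals on either strand of the window.
Mccc1, chr3:36000721-36000774, minus strand: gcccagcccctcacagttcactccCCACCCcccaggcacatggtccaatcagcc
Aldh6a1, chr12:84451068-84451121, minus strand: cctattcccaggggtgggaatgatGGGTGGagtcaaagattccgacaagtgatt
Hsd17b10, chrX:152001747-152001800, plus strand: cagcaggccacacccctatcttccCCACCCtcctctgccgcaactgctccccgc
The motif in capitals lies 72, 73 and 125 bases before the start site in these windows, and the Aldh6a1 stretch holds a second match, 86 bases before, in lower case. A window of 250 bases before to 50 after a start was listed for 26 of the 29 genes (not for Acat1, Dbt and Mmadhc). CCACCC or its complement GGGTGG was found in 13 of 33 member windows (39.4%) and in 31.5% of all 32851 windows. Other letters searched on both strands were AAGGTCA, a site of ERR type receptors, in 0 member windows and 4.72% of all, the E-box CACGTG in 2 (6.06%) and 7.15%, and the palindrome of NRF1 in 0 and 0.971%. No motif searched overlaps another in its letters, and a match describes the sequence only.

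Total counts were 42291511 to 58658094 per library, and the 29 genes took 0.521% to 0.588% of them in Sham and 0.513% to 0.560% in MR. Markers of heart muscle were abundant, with Myh6, the main myosin heavy chain, at 23026 CPM (counts per 1e+06 counts, scaled by TMM) in Sham and 18923 in MR. Libraries differed within Sham: replicate 1 had the highest Sham value for 18 of the 29 genes and replicate 3 the lowest for 18. This order was not counted over all genes, so it cannot be read as particular to the 29. Without Sham replicate 3 the test called 2 of the 29 lower, Mccc1 and Pccb (adjusted p 0.0443 and 0.0322), where 5.28% of all genes passed and 2.32% were lower. The labels do not say that libraries came from separate animals. The p-values therefore reflect only how far these libraries scatter, which may be technical.

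Per length, the ketone enzyme Oxct1 stood highest among the 29 and the cytosolic aminotransferase Bcat1 and the dehydrogenase Bdh2 lowest. Oxct1, which moves coenzyme A onto acetoacetate, averaged 374 CPM per kb of exon, followed by Dld at 162 and Acat1 at 155, while Bcat1 averaged 0.157 and Bdh2 0.0866. Oxct1 alone took 25.3% of all counts on the 29 genes, Dld 10.8% and Acat1 10.6%. These places at the top and the bottom held with the length of the principal transcript in place of all exons, an alternative chosen after the data were seen. Stretches of 50 bases shared with another gene made up over 5% of the transcript sequence in 5 members, namely Bckdha (49.6%), Aldh6a1 (16.1%), Bcat2 (11.6%), Oxct1 (11.2%) and Bdh1 (11.1%), so their counts are less certain. Other places in the order did not all hold: Mccc1 went from 8.74 to 39.0 CPM per kb and passed Mccc2, its partner subunit, which went from 21.2 to 28.0.

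**Figure D1:**
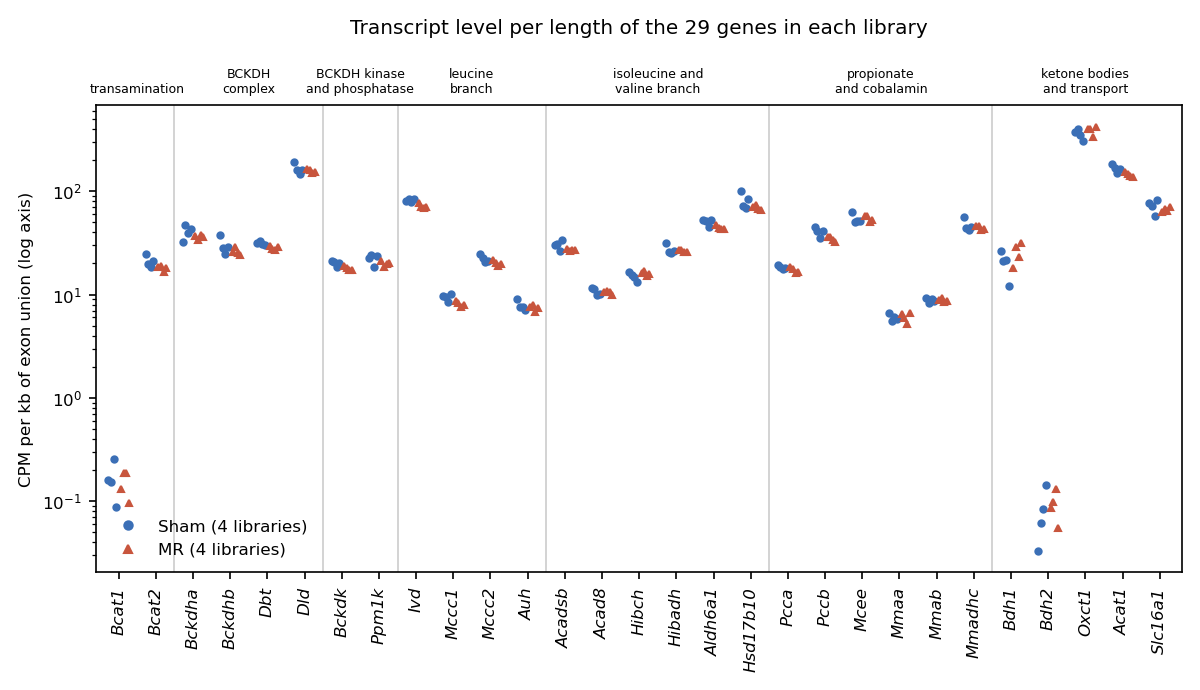
Level of each of the 29 genes in each library, in CPM per kb of exon on a log axis, with circles for Sham and triangles for MR and genes ordered by role. Oxct1 lies highest in all libraries, and Bcat1 and Bdh2 lie far below the other 27 genes.

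Both aminotransferases had negative values, and Bcat2, the mitochondrial form, was far above Bcat1 in every library. Bcat2 read 96.9, 76.9, 72.3 and 82.7 CPM in Sham and 72.0, 73.0, 64.0 and 69.9 in MR, in replicate order as in all values by library that follow. The groups overlapped only at Sham replicate 3, which lay below MR replicate 2, and Sham replicate 1 stood well above the rest. The log2 fold change was −0.24 (SE 0.087, adjusted p = 0.213) and −0.15 without Sham replicate 1. Bcat1, the cytosolic form, was at 1.53 ± 0.636 CPM over the Sham libraries and 1.40 ± 0.423 over the MR libraries (SD, n = 4), and its log2 fold change of −0.14 had an interval of −0.79 to 0.51. The log2 ratio of Bcat1 to Bcat2 was −5.74 ± 0.670 in Sham and −5.59 ± 0.465 in MR (SD, n = 4; difference 0.15, exact two-sided permutation p = 0.743, adjusted over 3 ratios 0.943).

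The 4 genes of the BCKDH complex all had negative values, of which 1 was at an unadjusted p under 0.05. Dbt encodes the core acyltransferase of the complex. Its values were 106, 111, 103 and 100 CPM in Sham and 98.6, 92.7, 89.6 and 96.4 in MR, so that every MR library lay below every Sham library (log2 fold change −0.15, SE 0.065, adjusted p = 0.278). Such separation with MR lower was seen in 2 of the 29 genes, Dbt and Ivd, and with MR higher in 0, against 3.91% and 4.19% of all genes tested. Bckdha and Bckdhb encode the chains of the decarboxylase that the kinase and phosphatase act on. They averaged 77.0 ± 11.8 and 53.8 ± 9.77 CPM over the Sham libraries against 68.9 ± 3.72 and 47.0 ± 3.78 over the MR libraries (SD, n = 4), log2 differences of −0.16 and −0.19 (adjusted p 0.462 and 0.432). Without Sham replicate 1 they were at −0.26 and −0.075. Bckdha is uncertain, because 61.7% of its exon length lies over B3gnt8 on the other strand and the counting is not stated to use strand, and B3gnt8 itself was at 2.10 to 3.18 CPM. Dld, the lipoamide dehydrogenase that pyruvate and oxoglutarate dehydrogenases also use, read 714, 591, 546 and 589 CPM in Sham and 609, 586, 555 and 571 in MR. Sham replicate 1 lay above all others and the rest of the groups overlapped, and the log2 fold change of −0.073 (SE 0.086, adjusted p = 0.740) became 0.0040 without that library.

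The kinase and the phosphatase of the complex had nearly equal shifts. Bckdk, the kinase that inactivates the complex, read 77.4, 76.7, 68.4 and 74.2 CPM in Sham and 69.4, 66.8, 63.3 and 64.2 in MR. Only Sham replicate 3 lay within reach of the MR values, just below MR replicate 1, and the log2 fold change was −0.17 (SE 0.065, adjusted p = 0.232). Ppm1k, the mitochondrial phosphatase that reactivates it, read 135, 146, 112 and 144 CPM in Sham and 127, 110, 118 and 122 in MR. Sham replicate 3 again lay among the MR libraries, and the log2 fold change was −0.17 (SE 0.087, adjusted p = 0.383). Their log2 ratio was −0.85 ± 0.114 in Sham and −0.85 ± 0.0890 in MR (SD, n = 4), a difference of −0.0071 (exact two-sided permutation p = 0.943, adjusted over 3 ratios 0.943), where 0.0286 is the smallest p that 70 arrangements allow.

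**Figure D2:**
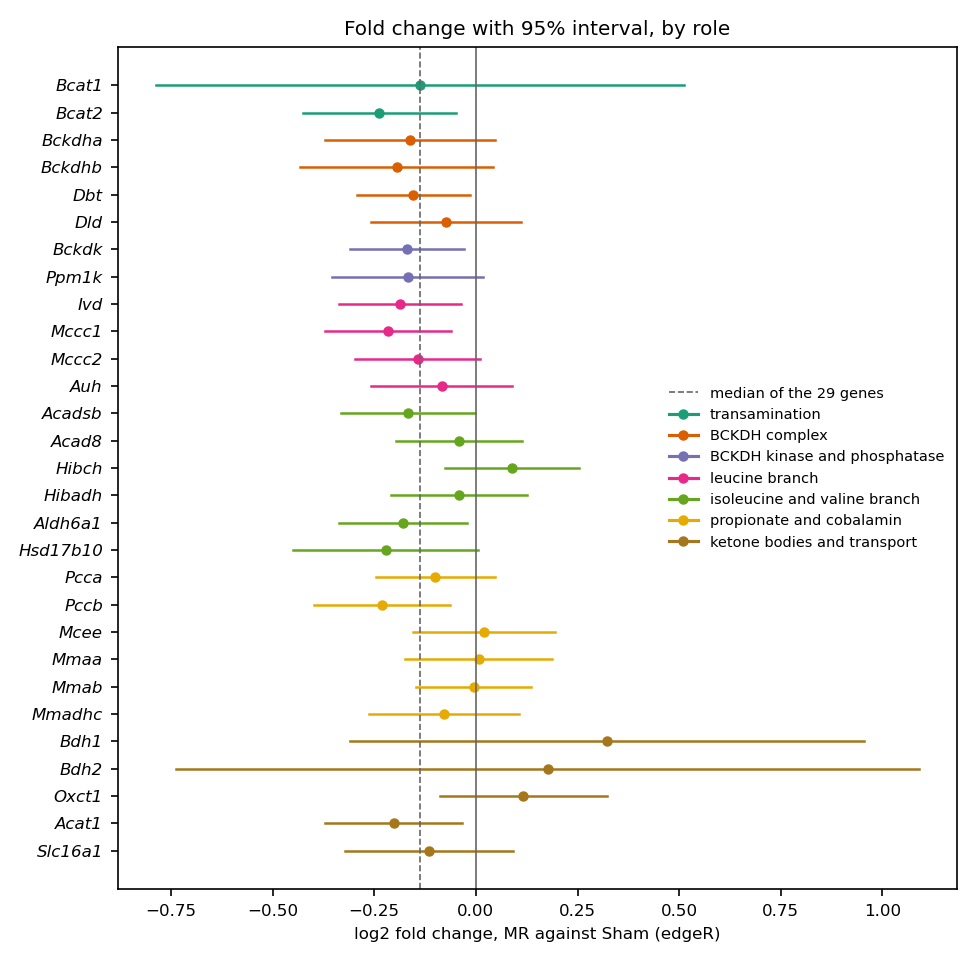
Log2 fold change of MR against Sham for each gene (points, edgeR) with its 95% interval (lines), coloured by role, with a solid line at 0 and a dashed line at the median of −0.14. Most points lie a little left of 0, and Bcat1, Bdh1 and Bdh2 have the widest intervals.

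All 4 genes of the leucine branch had negative values, and 2 of them were at an unadjusted p under 0.05. Mccc1, the biotin-carrying subunit of methylcrotonyl-CoA carboxylase, read 107, 103, 92.5 and 110 CPM in Sham and 94.6, 90.03, 83.7 and 86.1 in MR. Sham replicate 3 was the one Sham library below an MR library, and the log2 fold change of −0.22 (SE 0.072, adjusted p = 0.168) had the lowest p of the 29. Mccc1 (ENSMUSG00000027709, protein coding) spans chr3:35959312-36000678 on the minus strand of GRCm38. Mccc2, the other subunit, averaged 62.5 ± 5.17 CPM over the Sham libraries and 56.6 ± 2.65 over the MR libraries (SD, n = 4), a log2 difference of −0.14 (adjusted p = 0.370). Ivd, the isovaleryl-CoA dehydrogenase that precedes them, read 439, 466, 430 and 465 CPM in Sham and 425, 386, 380 and 391 in MR. The groups did not overlap, although MR replicate 1 came close to Sham replicate 3, and the log2 fold change was −0.19 (SE 0.070, adjusted p = 0.221). Auh, the hydratase of the next step, was at −0.084 (adjusted p = 0.676), and at −0.017 without Sham replicate 1.

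In the isoleucine and valine branch 5 of 6 genes had negative values and 2 were at an unadjusted p under 0.05. Aldh6a1, the methylmalonate semialdehyde dehydrogenase that closes valine breakdown, read 302, 297, 259 and 307 CPM in Sham and 270, 257, 251 and 251 in MR. Sham replicate 3 lay within the MR range and the other Sham libraries above it (log2 fold change −0.18, SE 0.073, adjusted p = 0.264). Hsd17b10, a dehydrogenase of isoleucine breakdown that is also a subunit of mitochondrial ribonuclease P, read 130, 92.9, 88.5 and 109 CPM in Sham and 91.5, 96.4, 88.2 and 84.9 in MR. Sham replicates 2 and 3 lay among the MR libraries, and its log2 fold change of −0.22 (SE 0.11, adjusted p = 0.347) was −0.11 without Sham replicate 1. Acadsb, which oxidises the isoleucine product, averaged 218 ± 20.9 CPM over the Sham libraries and 194 ± 4.43 over the MR libraries (SD, n = 4), a log2 difference of −0.17 (adjusted p = 0.327). Acad8, the isobutyryl-CoA dehydrogenase, and Hibadh, the hydroxyisobutyrate dehydrogenase, were both at −0.042 (adjusted p 0.833 and 0.845), and Hibadh at 0.025 without Sham replicate 1. Hibch, the hydroxyisobutyryl-CoA hydrolase between them, was at 91.2 ± 8.96 CPM over the Sham libraries and 97.1 ± 4.39 over the MR libraries, with a positive value of 0.089 (adjusted p = 0.632), and 0.031 without Sham replicate 4.

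**Figure D3:**
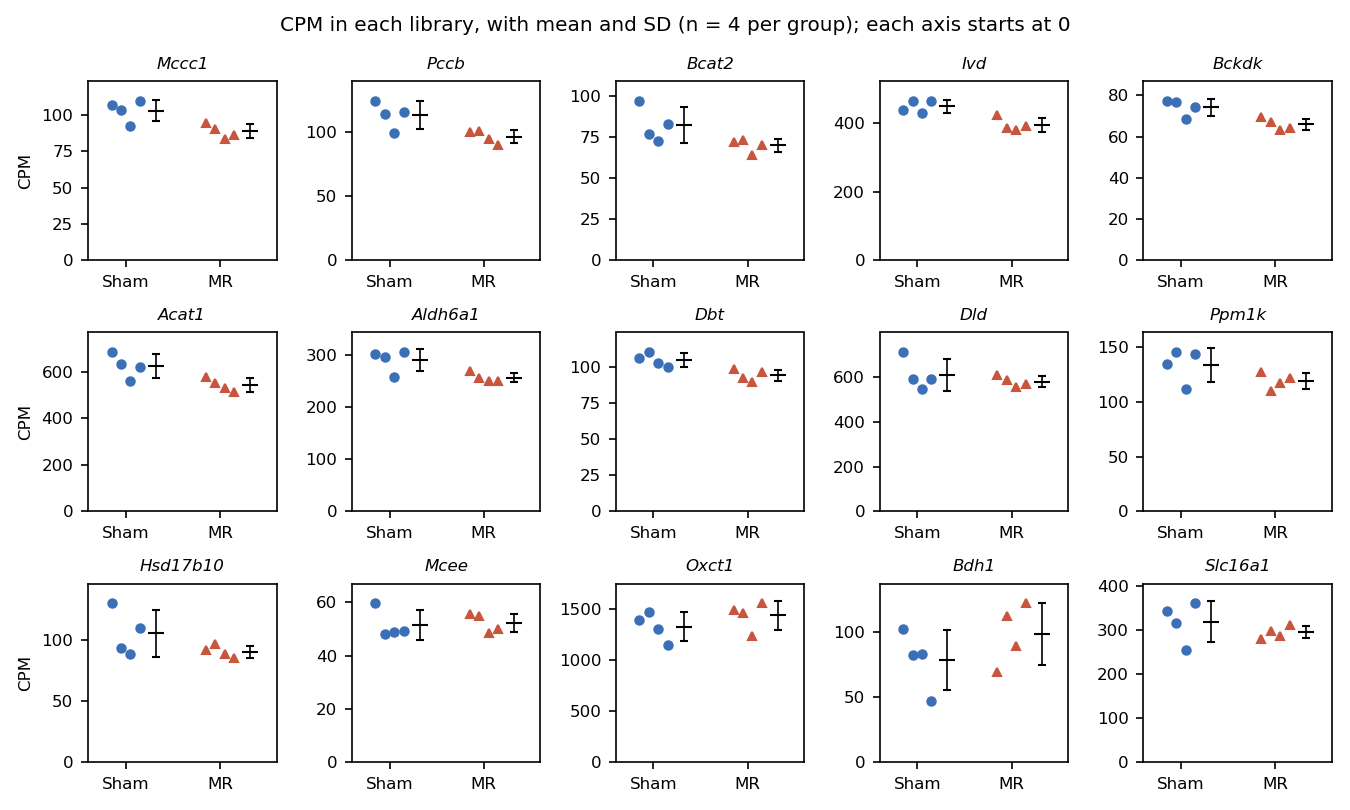
CPM in each library (circles Sham, triangles MR, replicates 1 to 4 from left to right) with mean and SD (n = 4) for the 8 genes with the lowest p and for 7 others, 5 of them the highest per length in their role. Sham replicate 3 lies near the MR values in most of the first 8 panels, and Bdh1 shows the widest spread.

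Both carboxylase subunits of propionate use had negative values, and those of the epimerase and the cobalamin genes lay closer to 0. Pccb, the beta subunit of propionyl-CoA carboxylase (ENSMUSG00000032527, protein coding, chr9:100982032-101034898, minus strand), read 124, 114, 98.6 and 115 CPM in Sham and 100, 101, 94.2 and 89.8 in MR. Sham replicate 3 lay below 2 of the MR libraries, and the log2 fold change was −0.23 (SE 0.078, adjusted p = 0.1701). Pcca, the biotin-carrying alpha subunit, was at −0.10 (adjusted p = 0.528). Mcee, the epimerase that hands methylmalonyl-CoA to the mutase, read 59.8, 48.0, 48.9 and 49.0 CPM in Sham and 55.5, 54.7, 48.4 and 50.03 in MR. The Sham range enclosed the MR range, with a log2 fold change of 0.020 and an interval of −0.16 to 0.20. Mmaa and Mmab, which load and make the cobalamin cofactor of the mutase, were at 0.0076 and −0.0058 with intervals of −0.17 to 0.19 and −0.15 to 0.14. Mmadhc, which directs cobalamin to the mitochondrion, was at −0.079 (adjusted p = 0.719), and at 0.011 without Sham replicate 1. The difference between the carboxylase and the cobalamin genes was not tested.

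Ketone genes did not share 1 direction. Oxct1 (ENSMUSG00000022186, protein coding) spans chr15:4026383-4155344 on the plus strand of GRCm38, and it read 1392, 1474, 1306 and 1146 CPM in Sham and 1495, 1468, 1240 and 1564 in MR. MR replicate 3 lay below 3 Sham libraries and MR replicates 1 and 4 above all of them, and the log2 fold change was 0.12 (SE 0.095, interval −0.087 to 0.32, adjusted p = 0.610), 0.052 without Sham replicate 4 and 0.18 without MR replicate 3. Bdh1, the mitochondrial dehydrogenase that turns beta-hydroxybutyrate into acetoacetate, read 102, 82.8, 83.2 and 47.0 CPM in Sham and 69.5, 113, 89.3 and 123 in MR. Sham replicate 4 was low and MR replicates 2 and 4 were high, while MR replicate 1 lay below 3 Sham libraries, so that its log2 fold change of 0.32 had an SE of 0.27 (adjusted p = 0.633) and lay between 0.14 and 0.47 in the fits that dropped 1 library. The log2 ratio of Oxct1 to Bdh1 was 4.12 ± 0.359 in Sham and 3.90 ± 0.354 in MR (SD, n = 4; difference −0.22, exact two-sided permutation p = 0.429, adjusted over 3 ratios 0.943). Some of the exon length of Oxct1 and Bdh1 (12.6% and 13.7%) lies over transcripts of the other strand, which were at 5.41 to 10.8 and 0.519 to 1.16 CPM.

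Acat1, the thiolase that splits acetoacetyl-CoA and also serves isoleucine breakdown, went the other way from Oxct1 in sign. It read 686, 633, 562 and 620 CPM in Sham and 579, 551, 531 and 512 in MR. Sham replicate 3 lay below MR replicate 1 and the other Sham libraries lay above all MR libraries (log2 fold change −0.20, SE 0.079, adjusted p = 0.238). Slc16a1, the monocarboxylate transporter that carries ketone bodies and lactate, read 344, 317, 256 and 363 CPM in Sham and 281, 300, 288 and 313 in MR. The MR libraries fell inside the Sham range, and the log2 fold change was −0.12 (SE 0.097, adjusted p = 0.622), −0.050 without Sham replicate 4 and −0.21 without Sham replicate 3. Bdh2, the cytosolic relative of Bdh1, had 6 to 28 counts per library, and its log2 fold change of 0.18 had an interval of −0.74 to 1.09.

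Levels of heart muscle markers are given beside those of the 29 genes. Relative to the Sham mean the median log2 deviation of the 29 genes was 0.12, 0.0068, −0.11 and −0.019 in Sham and −0.081, −0.063, −0.17 and −0.15 in MR. For 8 cardiomyocyte markers it was 0.071, 0.0076, −0.11 and 0.039 in Sham and −0.16, −0.21, −0.30 and −0.19 in MR. Summed CPM of these markers ranged from 45649 to 52758 in Sham and from 40624 to 45795 in MR, with 7 of 8 negative and a median log2 fold change of −0.23. Of the 8 edgeR called 0, at an unadjusted p under 0.05 there were 5 lower, and DESeq2 called Tnnt2, Tnni3 and Myl2 lower (adjusted p 0.0284, 0.0315 and 0.0210). The 8 did not move alike. Myh6, Tnnt2, Tnni3, Myl2 and Pln were at −0.28, −0.36, −0.33, −0.30 and −0.17, and Actn2, Ryr2 and Ttn at −0.0042, −0.058 and 0.17. The part of the marker shift in the values of the 29 genes was not tested. In whole tissue fewer cells of a type cannot be told apart from less RNA per cell, of all genes or of single markers. Summed markers of other cells were 626 to 760 CPM in Sham and 737 to 788 in MR for endothelium (5 of 6 positive), 1688 to 1746 and 1690 to 1836 for fibroblasts (4 of 7), 905 to 990 and 972 to 1092 for mural cells (4 of 6), and 335 to 375 and 369 to 404 for macrophages (5 of 7). Neutrophil markers were at 8.96 to 59.3 CPM in Sham and 3.42 to 6.27 in MR (0 of 6 positive), atrial markers at 48.7 to 79.4 and 102 to 221 (5 of 5 tested positive, with most of the sum from Nppa, at 41.95 to 65.7 and 81.4 to 205), epicardial markers at 6.62 to 11.7 and 9.40 to 27.3 (5 of 5 positive), and erythroid markers at 309 to 559 and 376 to 724 (5 of 5 positive). Among the other atrial markers Myl7 overlapped between the groups, at 0.355 to 4.90 and 1.73 to 4.43 CPM, while limma-voom called Myl4 higher, as it did Nppa. Lymphocyte and adipocyte markers were near 0, at most 2.23 and 1.78 CPM in sum. Of 60 marker genes tested edgeR called 0. At an unadjusted p under 0.05 there were 23, with 11 higher and 12 lower, where 7.78% and 7.29% of all genes were. Limma-voom called 5 of 60, and DESeq2 called 12 of 54, namely 9 lower and 3 higher, where they called 2.75% and 4.59% of all genes. The 12 held 5 of the 6 neutrophil markers, all lower, and the 3 muscle markers named above. Nppa of the atrial list and Acta2 of the mural list were higher. Of the macrophage list they held Mrc1 and Lyz2, 1 higher and 1 lower. Whether the share of atrial tissue differed was not tested. Ucp1 and Lep of the adipocyte list and Bmp10 of the atrial list were listed at 0 in 7, 5 and 6 of the 8 libraries.

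**Figure D4:**
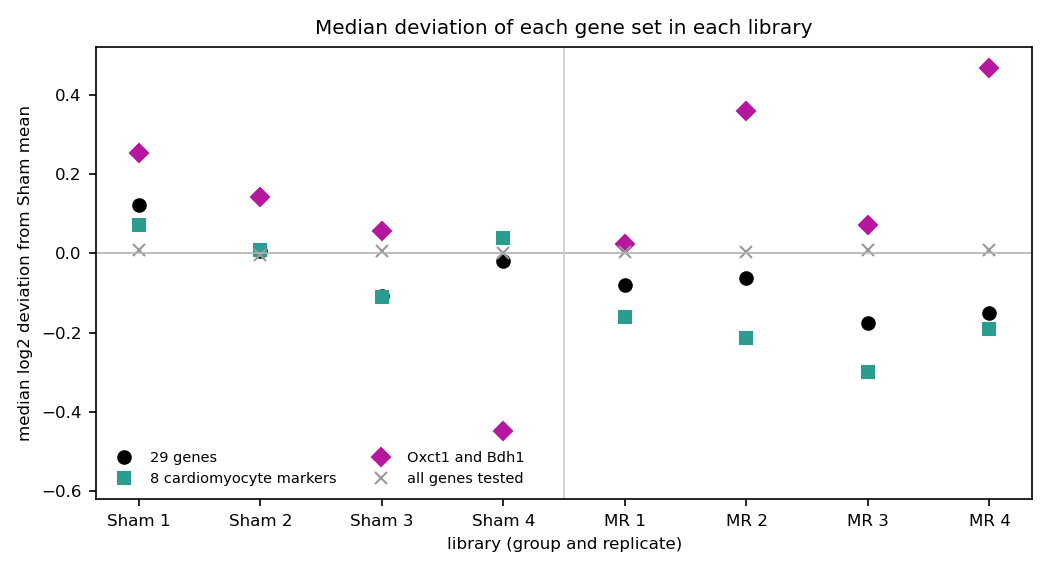
Median log2 deviation from the Sham mean in each library for the 29 genes (circles), 8 cardiomyocyte markers (squares), Oxct1 and Bdh1 (diamonds) and all genes tested (crosses). The 29 genes and the muscle markers lie below 0 in all 4 MR libraries and in Sham replicate 3, and Oxct1 and Bdh1 lie lowest in Sham replicate 4.

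Among 53 other genes of the same pathways 51 were tested, of which Acss1 and Klf15 fell in MR and 0 rose, where 0.217% of all genes tested fell. These 53 genes were chosen with earlier results of these data known, so their counts beside shares of all genes are a description only. Of the 51, 40 had negative values, against 49.6% of all genes tested, and the median of the 51 was −0.12 on the log2 scale. Those lower numbered 13 and those higher 2 at an unadjusted p under 0.05, against 7.29% and 7.78% of all genes. Acss1, the mitochondrial enzyme that activates acetate, read 421, 447, 373 and 496 CPM in Sham and 329, 303, 306 and 309 in MR. All MR libraries lay below all Sham libraries, a fall of 0.48 on the log2 scale (SE 0.086, adjusted p = 0.0327). Klf15, a transcription factor known to drive branched-chain amino acid breakdown in the heart, read 44.6, 59.5, 51.1 and 53.2 CPM in Sham and 35.4, 37.6, 37.0 and 38.5 in MR, again without overlap (log2 fold change −0.49, SE 0.082, adjusted p = 0.0261). Acss1 did not pass when Sham replicate 2 or 4 or any 1 MR library was left out (adjusted p 0.0737 to 0.114), nor did Klf15 without Sham replicate 2 or 4 or MR replicate 1, 2 or 3 (0.0734 to 0.0921).

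Transporters for amino acids had values of both signs. Slc3a2, the heavy chain of a heterodimeric transporter of large neutral amino acids, read 31.2, 29.1, 29.3 and 31.2 CPM in Sham and 23.6, 25.7, 25.2 and 24.5 in MR. Its groups did not overlap (log2 fold change −0.28, adjusted p = 0.0697), and DESeq2 and limma-voom called it lower (adjusted p 0.00324 and 0.0338). Slc7a5, the light chain that pairs with it, averaged 3.29 ± 0.224 CPM over the Sham libraries and 4.27 ± 0.587 over the MR libraries (SD, n = 4), a log2 difference of 0.37 (adjusted p = 0.198), also without overlap. In the shared steps of beta-oxidation 5 of 6 values were negative and 0 passed, with Hadha and Hadhb, the chains of the trifunctional protein, at −0.28 and −0.22 (adjusted p 0.129 and 0.1698 in edgeR), and DESeq2 called both lower (0.0204 and 0.0274). Of 12 other propionate, cobalamin and succinyl-CoA genes 10 were negative and 0 passed, with Mtr, the cobalamin-dependent methionine synthase, at −0.19 and Suclg2, a succinyl-CoA ligase chain, at −0.12 (adjusted p 0.402 and 0.405).

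The remaining lists held mostly negative values. Of 6 cofactor genes 4 were negative and 0 passed, with Slc5a6, the transporter of biotin and lipoate, at −0.19 and Lias, the lipoate synthase, at −0.11 (adjusted p 0.292 and 0.562). Of 9 tested genes for ketone synthesis and transport 5 were negative and Acss1 alone passed. All 6 genes of amino group transfer were negative and 0 passed, with Glul, the glutamine synthetase, and Got1, the cytosolic aspartate aminotransferase, at −0.25 and −0.26 (adjusted p 0.156 and 0.179 in edgeR), and DESeq2 and limma-voom called Glul lower (0.0454 and 0.0423). All 6 genes of the regulator list were negative and Klf15 alone passed, with Ppargc1a, a coactivator of mitochondrial genes, at −0.24 (adjusted p = 0.202). Acly, an enzyme placed in that list, was at −0.0051, and at 0.038 by library totals. Ppara was at −0.11, and at 0.012 without MR replicate 2. Hmgcll1 and Hcar2 did not pass the filter on low counts.

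**Figure D5:**
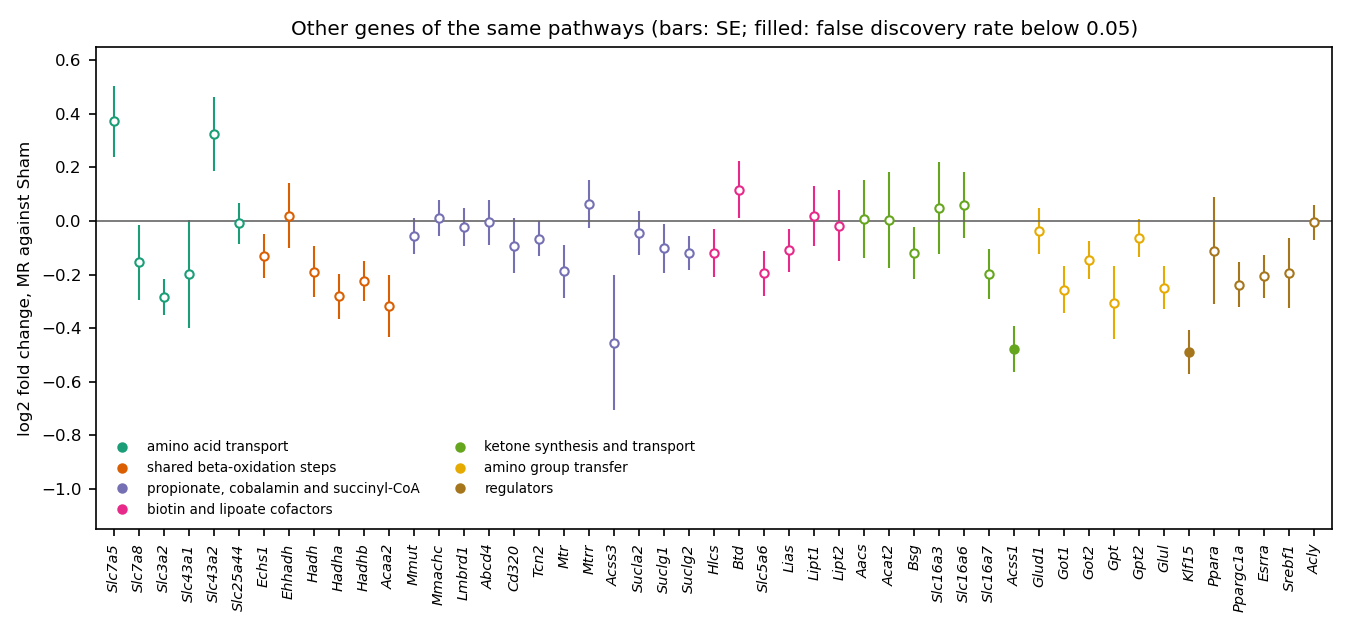
Log2 fold change of MR against Sham (edgeR, bars show SE) for 49 of the 51 other genes tested, coloured by list, filled where the false discovery rate was below 0.05. Acss1 and Klf15 are the filled points and have the lowest values shown.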

How the data were processed

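The authors deposited 1 table of raw read counts, with 1 row per Ensembl gene and 1 column for each of the 8 heart libraries. Per the submitters' processing notes the tools and builds include HISAT2 2.0.5 and mm10, and how reads were counted, with which strand setting and annotation, was not given in the sources used here. Symbols came from GENCODE M21 (GRCm38), and 32350 of 33105 identifiers matched. Columns were matched by title and groups by the treatment label. Replicate numbers only name libraries, and the title numbers form a separate block in each group, so a handling difference that follows them cannot be told apart from MR. Genes with exactly 2 reads outnumbered those with exactly 1 by 2.27 to 2.82 times in every library, and whether both ends of a fragment were counted is not stated.

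Genes were filtered with filterByExpr (minimum count 10, minimum total 15), which left 16603 with all 29 members, scaled by TMM and compared with the quasi-likelihood F test (robust) of edgeR 4.0.16 in R 4.3.3, with Benjamini-Hochberg adjustment over all genes tested. The SE is the log2 fold change over the square root of F, and 95% intervals use the t distribution with the fit's degrees of freedom. Ratios of 2 genes used log2(CPM + 0.1) and exact permutation tests (scipy 1.17.1). A count of 0 allows up to 3 counts (0.0511 to 0.0709 CPM), counting error only. Alternatives were RLE scaling, library totals, no filter, 1 CPM in 4 libraries, DESeq2 1.42.0, limma 3.58.1 voom with quality weights, no robust moderation, a removed length trend and each library left out. The test was also run on simulated data, with planted changes larger than the estimate of any member and 1 spread for all genes. That run therefore does not bear on shifts of the size seen in the members. The members and lists were chosen with earlier results of these data known. All members are named, with each library's value for the 8 with the lowest p and the highest per length in each role. Other pathway genes are named where they passed or had the 2 lowest p in a list. A result of the ketone synthesis list is not reported here. Bdh1 and Slc16a1 by library were chosen after their values were seen.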

Additional observations from a re-analysis of the deposited data

Results flagged for a closer look

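Of 64 groups of 4 libraries checked (29 genes and 3 ratios in 2 groups), 3 held a library far from the other 3, where chance flags about 1 in 20. Hibadh was at 319 CPM in Sham replicate 1 against 260 to 269 in the other Sham libraries. Mcee was at 59.8 CPM in the same library against 48.0 to 49.0. The log2 ratio of Oxct1 to Bdh1 was 4.42 in MR replicate 1 against 3.67 to 3.79 in the other MR libraries.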

How the results depend on the processing

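The count of members past the threshold was 0 under all alternatives except the fit without Sham replicate 3, where it was 2, so that with a library left out it ran from 0 to 2. Over all genes 76 passed, against 936 with no filter, 688 in DESeq2, 457 in limma-voom, 246 with the length trend removed and 3 to 887 with a library left out. By library totals alone 53 were higher and 17 lower, against 40 and 36. Of the other pathway genes 2 passed, against 7 with no filter, 6 in DESeq2, 4 in limma-voom and 0 to 8 with a library left out. The cause was not tested. The median of the members lay between −0.17 and −0.085 when 1 library was dropped. Leaving out 1 library moved the value of 18 of the 29 by over 1.5 times, some of them close to 0 to begin with, most often Sham replicate 1 (14 genes) and Sham replicate 4 (11). Among the 60 marker genes 0 passed, against 12 in DESeq2, 10 with no filter, 5 in limma-voom, 3 with no robust moderation, 3 with the length trend removed and 10 without Sham replicate 3. Of 463 member values under alternatives 435 kept sign and side of the threshold, 2 newly passed and 26 changed sign, in 9 members. With a library left out Bcat1 ran from −0.35 to 0.15, Bdh2 from −0.085 to 0.61, Dld from −0.13 to 0.0040, Hibadh from −0.076 to 0.025, Mcee from −0.012 to 0.094, Mmaa from −0.035 to 0.072, Mmab from −0.031 to 0.017 and Mmadhc from −0.13 to 0.011. By library totals Acad8, Hibadh and Mmab were at 0.0037, 0.0030 and 0.038, in limma-voom Hibadh and Mmab at 0.0059 and 0.023, and with the length trend removed Mmaa at −0.0075. The difference in log2 ratio with a library left out ran from −0.051 to 0.039 for Bckdk to Ppm1k and from −0.10 to 0.43 for Bcat1 to Bcat2. Bdh2 at 1 CPM in 4 libraries gave no value. No paired analysis was possible because the labels carry no replicate numbers that pair libraries. Bcat1 and Bdh2 had few counts, 38 to 105 and 6 to 28 per library, and the part of depth in their spread was not tested.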

Other observations

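Spread within groups was larger in Sham for 26 of the 29 genes, with a median coefficient of variation of 10.03% in Sham and 5.39% in MR. MR replicate 3 held the lowest MR value for 17 of the 29 and the lowest median of cardiomyocyte markers. Neither count was made over all genes, so neither can be read as particular to the 29.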
